A study of Mus musculus with 7 samples.

Results

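The 3 D-type cyclin genes, Mycn, the kinase genes Cdk4 and Cdk6 and the CDK inhibitor genes Cdkn1b, Cdkn1c, Cdkn2c and Cdkn2d were examined in whole cerebella of mouse pups at postnatal day 15. The 10 genes were picked by symbol, as genes that carry progenitors into or out of the cell cycle, from the 55450 genes of each library, and 10 of 10 passed the filter on low counts that left 16813 genes for testing. All pups were of the C57BL/6 strain. Polyadenylated RNA from 3 wild-type (WT) and 4 L3mbtl3 KO/+ cerebella gave 1 library each, where KO/+ stands for 1 knockout and 1 wild-type allele of L3mbtl3. The labels do not say which stretch of L3mbtl3 the knockout allele lacks or whether pups shared a litter, so the p-values below measure the spread between these libraries.

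D-type cyclins bind CDK4 or CDK6, and the active kinase phosphorylates the retinoblastoma protein, which then releases E2F transcription factors that turn on genes of DNA replication. CDK inhibitors of the INK4 family (here Cdkn2c and Cdkn2d) bind CDK4 and CDK6 themselves, while those of the CIP/KIP family (Cdkn1b and Cdkn1c) bind cyclin and CDK together. In the external granule layer of the postnatal cerebellum, Sonic hedgehog from Purkinje cells keeps granule neuron progenitors dividing and raises Ccnd1, Ccnd2 and Mycn, and progenitors that leave the cycle accumulate the Cdkn1b protein. Levels are given as CPM, the reads of a gene scaled to the same library total with TMM factors, when libraries are compared, and as TPM, which also corrects for transcript length, when genes are compared.

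Libraries held 29248342 to 43761782 assigned reads. L3mbtl3 itself stood at 22.6, 26.8 and 23.2 CPM in WT and 19.7, 17.4, 22.3 and 23.0 CPM in KO/+ libraries. Its genotypes overlapped, so it does not check the genotype labels. Mki67, a nuclear protein of dividing cells, stood at 194, 209 and 63.6 CPM in WT and 63.5, 61.4, 152 and 180 CPM in KO/+ libraries. WT replicate 3 and KO/+ replicates 1 and 2 were thus low and the other 4 libraries high, with no library between 63.6 and 152 CPM. Atoh1, the transcription factor of granule neuron progenitors, had the same split, at 3.44 CPM in WT replicate 3, 3.30 and 3.27 CPM in KO/+ replicates 1 and 2 and 8.63 to 12.2 CPM elsewhere. Bulk RNA cannot tell fewer cells of a type from less RNA per cell. Because Mki67 fell into separate clusters of 3 and 4 libraries, no correlation with it is given, and covariation is described library by library.

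None of the 10 genes passed the test between genotypes. Across all genes, edgeR's quasi-likelihood test called 0 of 16813 genes (0%) at an adjusted p under 0.05, and 530 (3.15%) had an unadjusted p under 0.05. Among the 10 genes 0 had an unadjusted p under 0.05. Of them 5 had negative and 5 positive log2 fold changes, KO/+ relative to WT, with a median of -0.06, where 51.2% of all genes tested were negative and the median was -0.0047. The CPM of the genotypes overlapped for 10 of 10, beside 3.96% of all genes with no overlap (2.16% higher and 1.80% lower in KO/+). In the plot of CPM by library, the spread within each genotype was wide for some of the genes and narrow for others, and the account below follows that division by role.

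**Figure D1:**
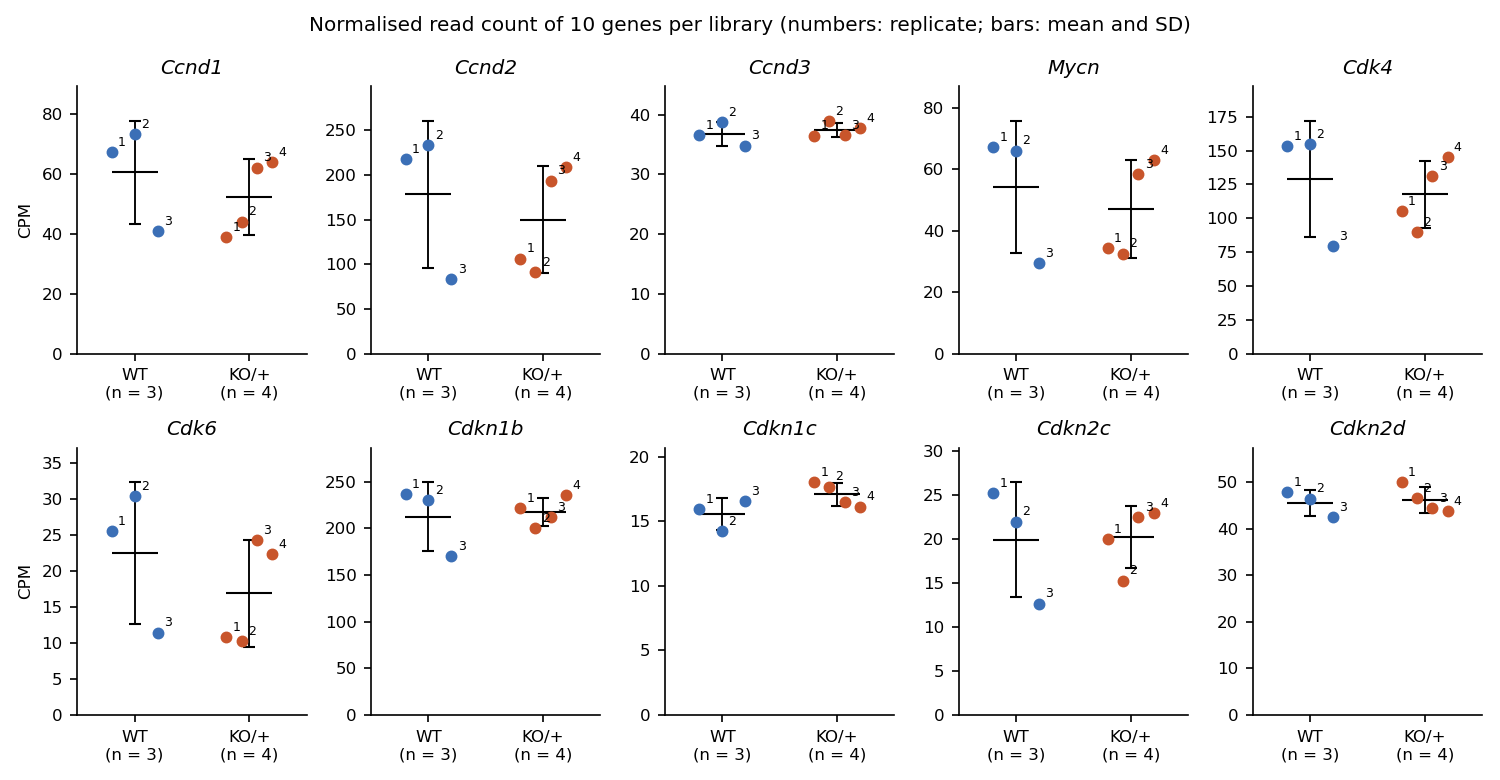
CPM of the 10 genes in the 3 WT (blue) and 4 KO/+ (orange) libraries, each panel with its own axis from 0. Numbers give the replicate, and bars the mean and SD of each genotype. Ccnd1, Ccnd2, Mycn, Cdk4 and Cdk6 were low in WT replicate 3 and KO/+ replicates 1 and 2, while Ccnd3, Cdkn1c and Cdkn2d varied little.

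The D-type cyclins did not vary alike. Ccnd2 (chr6:127125162-127152193, minus strand, GRCm38) stood at 218, 234 and 83.5 CPM in WT and 106, 91.4, 194 and 209 CPM in KO/+ libraries. The 3 low libraries were the 3 lowest for Mki67, and among the 4 other libraries Ccnd2 had the same order as Mki67, from KO/+ replicate 3 through KO/+ replicate 4 and WT replicate 1 to WT replicate 2. Ccnd2 averaged 178 ± 82.4 CPM over WT (SD, n = 3) against 150.1 ± 59.9 CPM over KO/+ libraries (SD, n = 4), a log2 fold change of -0.25 (SE 0.40, 95% interval -1.17 to 0.68, edgeR adjusted p = 0.957) and a two-sided exact permutation p of 0.743, where 35 arrangements of genotypes allow no p below 0.0286. Ccnd1 (chr7:144929931-144939925, minus strand) stood at 67.4, 73.4 and 41.0 CPM in WT and 38.8, 44.1, 62.2 and 64.0 CPM in KO/+ libraries. It was low in the same 3 libraries, over a narrower range, with its highest value 1.89 times its lowest, where Ccnd2 reached 2.80 times and Mki67 3.41 times. The log2 fold change of Ccnd1 was -0.21 (SE 0.24, interval -0.76 to 0.34, edgeR adjusted p = 0.957; exact permutation p = 0.514).

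Ccnd3 (chr17:47505051-47599691, plus strand) stood at 36.6, 38.8 and 34.8 CPM in WT and 36.5, 39.0, 36.5 and 37.7 CPM in KO/+ libraries. It was nearly level, since its highest value was 1.12 times its lowest, and the SD of its log2 CPM over the 7 libraries was above that of 2.93% of the genes tested. Ccnd2, by the same measure, was above 94.9% of genes. The log2 fold change of Ccnd3 was 0.03 (SE 0.07, interval -0.13 to 0.19, edgeR adjusted p = 0.970; exact permutation p = 0.571). On the TPM scale its sign turned (difference of mean log2(TPM + 1) -0.05).

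The make-up of the D cyclin pool therefore differed between libraries. The summed TPM of Ccnd1, Ccnd2 and Ccnd3 came to 138, 153 and 82.8 in the WT libraries, and to 86.2, 86.9, 136 and 137 in those of KO/+ pups. Ccnd2 made up 53.4%, 53.3% and 34.9% of the sum in WT and 44.0%, 38.3%, 52.5% and 53.2% in KO/+ libraries. Ccnd3 made up 24.7%, 24.4% and 42.7% of it in the WT libraries, against 36.9%, 40.1%, 26.2% and 25.4% in those of KO/+ pups, so that it was the most abundant D cyclin transcript in WT replicate 3 and KO/+ replicate 2 and Ccnd2 was in the other 5. Ccnd1 stayed between 19.2% and 22.3%, and its shares did not overlap, at 21.9% to 22.3% for WT and 19.2% to 21.5% for KO/+. The difference of -1.32 percentage points had an exact permutation p of 0.0857, which does not pass, and rested in part on KO/+ replicate 1 (-0.749 without it). Shares were also compared for every other gene of the D cyclin, kinase and inhibitor sums, and each of those overlapped between genotypes. The genotype means of the Ccnd2 share, 47.2% ± 10.6 for WT (SD, n = 3) and 47.0% ± 7.12 for KO/+ (SD, n = 4), differed by less than the spread within either genotype (exact permutation p = 0.943).

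**Figure D2:**
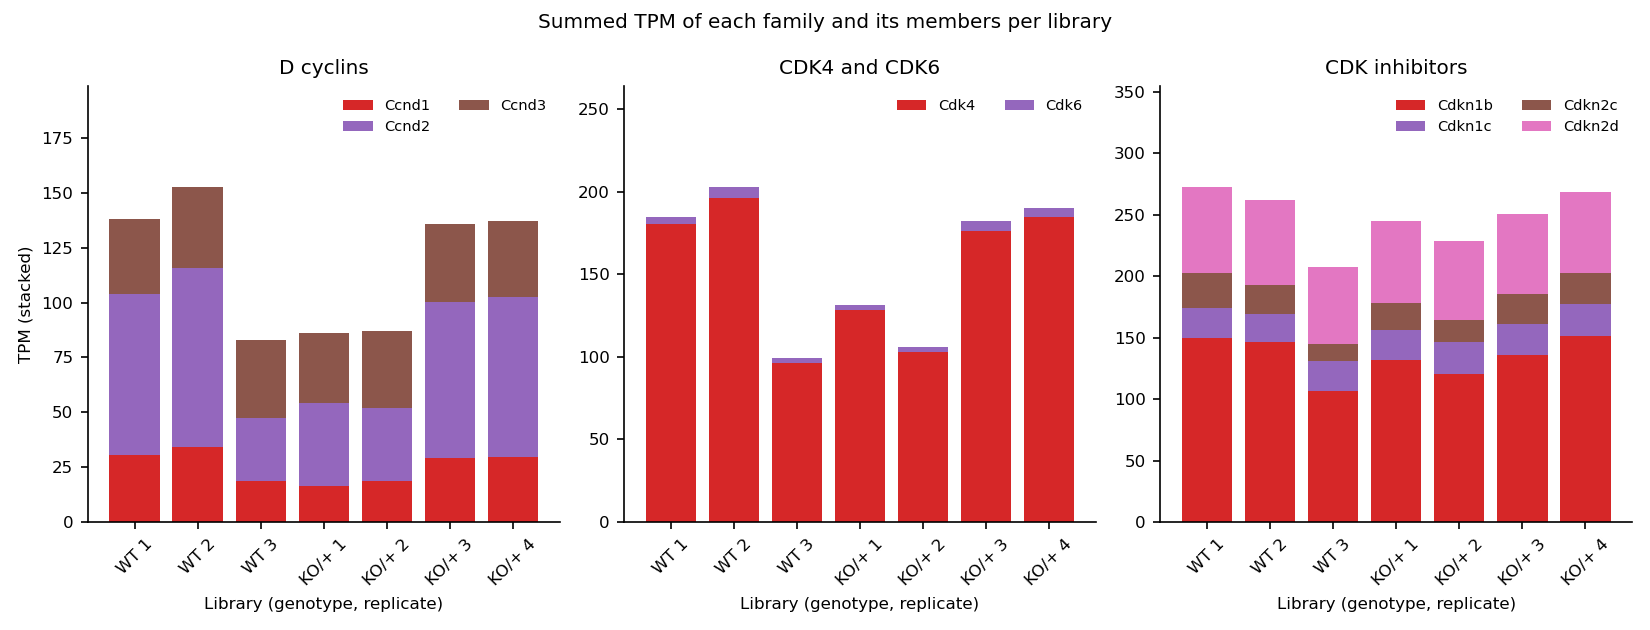
Stacked TPM of the D cyclins, of Cdk4 with Cdk6 and of the 4 CDK inhibitors in each of the 7 libraries. The D cyclin sum ran from 82.8 to 153 with a nearly level Ccnd3 segment, the kinase sum was mostly Cdk4, and the inhibitor sum ran from 208 to 273.

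Mycn (chr12:12936093-12941914, minus strand), which encodes the Myc family transcription factor of granule neuron progenitors, stood at 67.3, 66.0 and 29.5 CPM in WT and 34.3, 32.5, 58.5 and 63.1 CPM in KO/+ libraries. Its 3 lowest values were in the 3 libraries lowest for Mki67, and 34.3 CPM in KO/+ replicate 1 was separated from 58.5 CPM in KO/+ replicate 3 by a gap that no library filled. Mycn averaged 54.3 ± 21.5 CPM over WT (SD, n = 3) against 47.1 ± 16.0 CPM over KO/+ libraries (SD, n = 4), a log2 fold change of -0.20 (SE 0.34, interval -0.98 to 0.57, edgeR adjusted p = 0.957; exact permutation p = 0.743).

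Cdk4 (chr10:127063534-127067920, plus strand) stood at 153, 155 and 79.6 CPM in WT and 105, 89.8, 131 and 145 CPM in KO/+ libraries. It too was lowest in WT replicate 3 and KO/+ replicates 1 and 2, and KO/+ replicate 1 was the highest of those 3. Its log2 fold change of -0.13 did not pass (SE 0.25, interval -0.71 to 0.44, edgeR adjusted p = 0.959; exact permutation p = 0.771). Cdk6 (chr5:3341485-3531008, plus strand), the paralogous kinase, stood at 25.6, 30.4 and 11.5 CPM in WT and 10.8, 10.3, 24.3 and 22.3 CPM in KO/+ libraries. Its highest value was 2.96 times its lowest, the widest CPM range of the 10 genes, and its log2 fold change of -0.41 (SE 0.41, interval -1.35 to 0.52, edgeR adjusted p = 0.957; exact permutation p = 0.457) was also the largest in size on counts. On log2(TPM + 1) it was -0.07, smaller than that of Ccnd1 (-0.23) and Mycn (-0.22). Per transcript length Cdk6 was a minor kinase here: Cdk4 made up 96.5% to 97.9% of the summed TPM of both genes in the 7 libraries.

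Promoter windows of RefSeq (GRCm38.p6, 250 bases before to 50 after a gene's start) were at hand for 7 of the 10 genes, with 9 windows in all. They were searched on both strands for 5 motifs, chosen after the sequences had been read: the E2F motifs TTTCCCGC, TTTGGCGC and TTTCGCGC, the E-box CACGTG that Myc family proteins bind with MAX, and the GLI motif TGGGTGGTC of the Hedgehog effectors. Ccnd1, Ccnd2 and Cdkn1c had no window. The stretches of Mycn and Cdk4 are shown because these genes moved with Mki67 and hold repeated motifs, and that of Cdkn1b because it varied less and holds none. Picked on both counts, these stretches cannot show whether motifs go with a pattern between libraries. Each is given 5′ to 3′ on the strand of the gene, up to the first annotated exon base, with the motifs in capitals.
Mycn, chr12:12941915-12942086, minus strand: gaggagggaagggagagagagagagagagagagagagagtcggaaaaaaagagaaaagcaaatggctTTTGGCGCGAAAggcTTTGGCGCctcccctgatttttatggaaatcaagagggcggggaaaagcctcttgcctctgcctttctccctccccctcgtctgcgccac
Cdk4, chr10:127063285-127063533, plus strand: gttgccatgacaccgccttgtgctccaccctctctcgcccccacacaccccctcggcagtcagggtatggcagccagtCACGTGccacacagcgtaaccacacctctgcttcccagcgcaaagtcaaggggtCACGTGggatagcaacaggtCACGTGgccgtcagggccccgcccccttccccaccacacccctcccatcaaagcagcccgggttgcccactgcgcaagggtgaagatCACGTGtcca
Cdkn1b, chr6:134920151-134920400, plus strand: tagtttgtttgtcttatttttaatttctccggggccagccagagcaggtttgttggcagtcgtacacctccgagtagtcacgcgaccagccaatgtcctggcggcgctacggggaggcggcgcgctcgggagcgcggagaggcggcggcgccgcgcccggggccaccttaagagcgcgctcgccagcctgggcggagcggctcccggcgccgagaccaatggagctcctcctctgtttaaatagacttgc

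The Mycn stretch of 172 bases held TTTGGCGC at 2 places and TTTCGCGC, on the other strand, at 1 place, and the latter overlapped the upstream TTTGGCGC, so that the capitals form a single run there. At least 1 of the 3 E2F motifs occurred in 1.84% of all 32851 promoter windows, and TTTGGCGC occurred at least 2 times in 2 of them (0.00609%). The Cdk4 stretch of 249 bases held CACGTG at 4 places, starting 172, 118, 98 and 11 bases before the RefSeq start. At least 1 CACGTG occurred in 7.15% of all windows and at least 4 in 8 windows (0.0244%). Of the other genes, Cdk6 and the downstream window of Cdkn2c held 1 CACGTG each, and the windows of Cdkn1b, Cdkn2d and Ccnd3 held none of the 5 motifs. The GLI motif was in 0 of the 9 windows and in 0.253% of all windows. Because the motifs were chosen after the sequences had been read, these shares do not measure how unusual the matches are. A match is a run of letters and not a measured binding site.

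Of the CDK inhibitors, Cdkn1b, Cdkn1c and Cdkn2d varied less between libraries than Ccnd1, Ccnd2, Mycn and the kinases, and Cdkn2c and the cyclin Ccnd3 stood outside this division by role. Cdkn1b (chr6:134920401-134925513, plus strand), the CIP/KIP inhibitor p27Kip1, stood at 237, 230 and 171 CPM in WT and 221, 200.5, 213 and 236 CPM in KO/+ libraries. WT replicate 3 was the lowest, while KO/+ replicate 1, one of the libraries low in Mki67, stood above KO/+ replicate 3, so the order did not follow Mki67. Its log2 fold change was 0.03 (SE 0.13, interval -0.26 to 0.32, edgeR adjusted p = 0.979; exact permutation p = 0.8286). Cdkn1c (chr7:143458339-143461050, minus strand), the imprinted inhibitor p57Kip2, stood at 15.9, 14.2 and 16.6 CPM in WT and 18.0, 17.7, 16.5 and 16.1 CPM in KO/+ libraries. It was the 1 gene of the 10 whose 3 highest values were in the libraries lowest for Mki67, as were those of 12.6% of all genes tested. The averages of 15.6 ± 1.22 CPM over WT (SD, n = 3) and 17.1 ± 0.910 CPM over KO/+ libraries (SD, n = 4) gave a log2 fold change of 0.13 (SE 0.09, interval -0.08 to 0.35, edgeR adjusted p = 0.957; exact permutation p = 0.143), with WT replicate 3 above KO/+ replicates 3 and 4.

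Cdkn2c (chr4:109660876-109667189, minus strand), the INK4 inhibitor p18INK4c, stood at 25.1, 21.9 and 12.6 CPM in WT and 20.0, 15.3, 22.4 and 22.9 CPM in KO/+ libraries. It was the 1 inhibitor whose 3 lowest values were in the libraries lowest for Mki67, but 20.0 CPM in KO/+ replicate 1 lay close to 21.9 CPM in WT replicate 2, without the gap that Mycn had. Its log2 fold change was 0.02 (SE 0.24, interval -0.53 to 0.56, edgeR adjusted p = 0.994; exact permutation p = 0.800). Cdkn2d (chr9:21288410-21291407, minus strand), the INK4 inhibitor p19INK4d, known from neurons that have left the cycle, stood at 47.9, 46.5 and 42.5 CPM in WT and 49.9, 46.6, 44.5 and 43.8 CPM in KO/+ libraries. Its highest value was 1.18 times its lowest, the next narrowest range after Ccnd3, and KO/+ replicate 1, low in Mki67, was the highest. Its log2 fold change was 0.02 (SE 0.08, interval -0.16 to 0.20, edgeR adjusted p = 0.979; exact permutation p = 0.800), and its sign turned on the TPM scale (difference of mean log2(TPM + 1) -0.04).

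Summed over the 4 inhibitors, TPM came to 273, 262 and 208 in the WT libraries, and to 245, 228, 250.3 and 269 in those of KO/+ pups, with equal genotype means of 248 ± 34.9 (SD, n = 3) and 248 ± 16.6 (SD, n = 4). Cdkn1b made up 51.5% to 56.4% of the sum in the 7 libraries, Cdkn2d 24.6% to 30.1%, Cdkn1c 8.52% to 11.7% and Cdkn2c 6.77% to 10.5%. The inhibitor pool was thus mostly Cdkn1b and Cdkn2d in every library.

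On the TPM scale the 10 genes fell in the order Cdk4 (152 ± 41.8, SD, n = 7 libraries of both genotypes), Cdkn1b (135 ± 16.5), Cdkn2d (66.4 ± 2.77), Ccnd2 (57.1 ± 22.6), Ccnd3 (34.8 ± 1.67), Mycn (33.4 ± 12.5), Ccnd1 (25.2 ± 7.10), Cdkn1c (24.4 ± 1.12), Cdkn2c (22.2 ± 4.91) and Cdk6 (4.52 ± 1.76). Steps with no overlap of the ranges over libraries came at 2 places, between Cdkn1b and Cdkn2d and between Cdkn2c and Cdk6. Mycn was above Ccnd1 in 7 of 7 libraries although their ranges overlapped. The other 6 neighbours exchanged places between libraries. Cdk4 was above Cdkn1b in 4 of 7 libraries, Cdkn2d above Ccnd2 in 3 and Ccnd3 above Mycn in 3.

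Compared library by library, 6 of the 10 genes (Ccnd1, Ccnd2, Mycn, Cdk4, Cdk6 and Cdkn2c) had their 3 lowest CPM values in the same 3 libraries as Mki67, as did 14.0% of all genes tested. On the TPM scale the count was 7 of 10, with Cdkn1b added, beside 23.1% of all genes. Within the 3 low libraries Mki67 was level (61.4 to 63.6 CPM), yet Cdkn2c ranged from 12.6 to 20.0 CPM, Cdk4 from 79.6 to 105 CPM and Ccnd2 from 83.5 to 106 CPM, each with WT replicate 3 lowest and KO/+ replicate 1 highest. Cdk6 and Ccnd1 did not have this order. Cdk6 was between 10.3 and 11.5 CPM there and highest in WT replicate 3. Ccnd1 was lowest in KO/+ replicate 1 (38.8 CPM) and highest in KO/+ replicate 2 (44.1 CPM). The 7 genes listed for granule neuron progenitors summed to 1387, 2043 and 1762 CPM in WT replicate 3 and KO/+ replicates 1 and 2. In the other 4 libraries the sum was 1992 to 2069 CPM, so it did not divide as Mki67 did. Of that list, Atoh1 reached at most 12.2 CPM and Mfap4 75.7 CPM. The sum thus came mostly from the other genes (Barhl1, Zic1, Pax6, Eomes and Sox11), and whether these mark progenitors alone was not tested. Atoh1 and Mfap4, named after their values were seen, had their 3 lowest values in the same libraries as Mki67, unlike the sum. Mfap4 stood at 18.6, 20.1 and 14.6 CPM in WT replicate 3 and KO/+ replicates 1 and 2, and at 29.8 to 75.7 CPM elsewhere. Marker sums of other cells also differed between libraries. The 7 Bergmann glia and astrocyte genes summed to 3425, 3531 and 3689 CPM in WT replicate 3 and KO/+ replicates 1 and 2. The other 4 libraries were at 2989 to 3243 CPM, with no overlap. The 6 microglia genes divided likewise, at 121, 103 and 111 CPM against 69.0 to 92.3 CPM. The sums of oligodendrocyte precursor, meningeal and endothelial genes did not divide in this way. The 6 myelinating oligodendrocyte genes summed to 17843 CPM in WT replicate 3, 11810 CPM in KO/+ replicate 1 and 16471 CPM in KO/+ replicate 2, against 7262 to 13837 CPM in the other 4, and the 6 Purkinje cell genes to 5485, 4224 and 5739 CPM against 3622 to 4573 CPM. The 8 choroid plexus genes summed to 47.0 CPM in WT replicate 3 but 1452 and 1050.2 CPM in KO/+ replicates 1 and 2, and of the other 4 libraries WT replicate 2 (1048 CPM) and KO/+ replicate 3 (739 CPM) were high and WT replicate 1 (42.6 CPM) and KO/+ replicate 4 (48.3 CPM) low. The 5 red blood cell genes summed to 990.2, 1388 and 924 CPM in KO/+ replicates 1, 2 and 3 and to 485 to 592 CPM in the other 4 libraries. None of the genes of these lists was at 0 in all libraries, and their part in the values of the 10 genes was not tested.

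**Figure D3:**
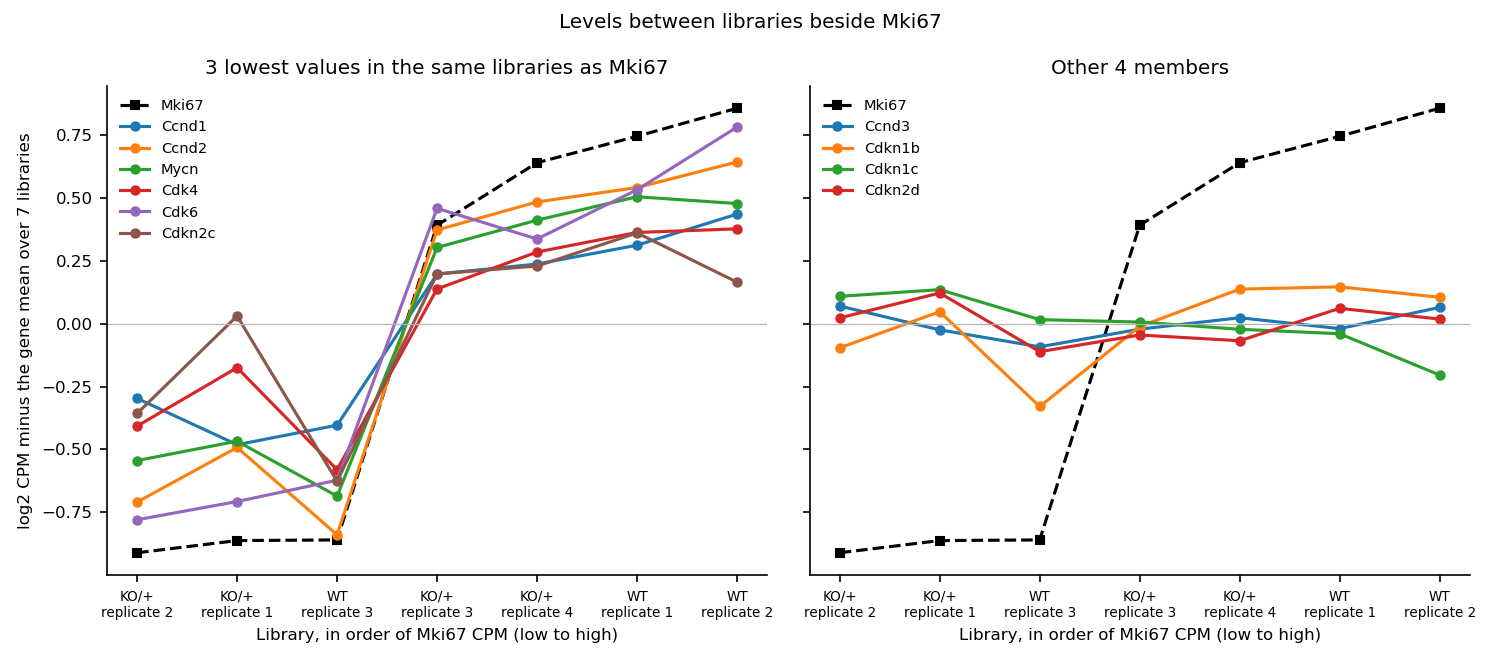
Log2 CPM of each gene minus its mean over the 7 libraries, with the libraries in order of Mki67 CPM and Mki67 as a dashed line. Left, the 6 genes with their 3 lowest values in the same libraries as Mki67, which step up between WT replicate 3 and KO/+ replicate 3. Among them Cdkn2c was already at 0.03 in KO/+ replicate 1. Right, Ccnd3, Cdkn1b, Cdkn1c and Cdkn2d, whose 3 lowest values were not all in those libraries. Cdkn1b rose from -0.33 in WT replicate 3, its lowest, to -0.01 in KO/+ replicate 3, but was at 0.05 in KO/+ replicate 1.

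The genes with the most similar pattern over the 7 libraries, by root mean square difference of centred log2 CPM among 10509 genes of at least 10 CPM, were sought for the 3 genes that varied most. For Ccnd2 they were Tpx2, Tyms and Cdc20, each at a difference of 0.05 on the log2 scale where the median gene was at 0.61. Tpx2, a spindle assembly factor, stood at 54.95, 57.4 and 20.4 CPM in WT and 24.2, 22.8, 47.4 and 51.8 CPM in KO/+ libraries. For Mycn they were Map3k1 (0.05), Tead2 (0.05) and Mns1 (0.06), where the median gene was at 0.51. Map3k1, a kinase of the MAP kinase cascade, stood at 143, 147 and 62.8 CPM in WT and 78.2, 69.4, 119 and 140.5 CPM in KO/+ libraries. For Cdk6 they were Kif15, Cdca7 and Brca1 (0.11 each, median 0.63), so its nearest genes were farther from it than those of Ccnd2 and Mycn. Cdk6 also had fewer reads, with a mean of 19.3 CPM against 162 CPM for Ccnd2 and 50.2 CPM for Mycn. The part of read number in these distances was not tested.

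With the log2 CPM of Mki67 as a covariate beside genotype, the standard errors of the genes that moved with Mki67 became smaller. That follows from their shared pattern and is no separate result. Mki67 fell into separate clusters of libraries, so the fit has no values between them. For Ccnd2 the log2 fold change turned from -0.25 (SE 0.40) to 0.14 (SE 0.08, interval -0.03 to 0.32), for Mycn from -0.20 (SE 0.34) to 0.11 (SE 0.06, interval -0.04 to 0.26) and for Cdk4 from -0.13 (SE 0.25) to 0.11 (SE 0.09, interval -0.10 to 0.31). Cdk6 moved from -0.41 to -0.06 (SE 0.10), Ccnd1 from -0.21 to -0.01 (SE 0.07) and Cdkn2c from 0.02 to 0.23 (SE 0.13, interval -0.08 to 0.54). Cdkn1b moved from 0.03 to 0.12 (SE 0.09) and Cdkn1c from 0.13 to 0.09 (SE 0.08). Ccnd3 moved from 0.03 to 0.04 (SE 0.07), and Cdkn2d was at 0.02 (SE 0.08) in both fits. In all, 8 of the 10 were positive and 2 negative. The share of positive signs among all genes was not counted for this fit, so this count is not read as a shift. None of the 10 genes passed in this fit, with 0 at an unadjusted p under 0.05 beside 5.51% of all genes and edgeR adjusted p from 0.777 to 0.990. Mki67 was measured in the same libraries, so this fit compares genotypes at equal Mki67 and does not give the whole genotype difference.

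**Figure D4:**
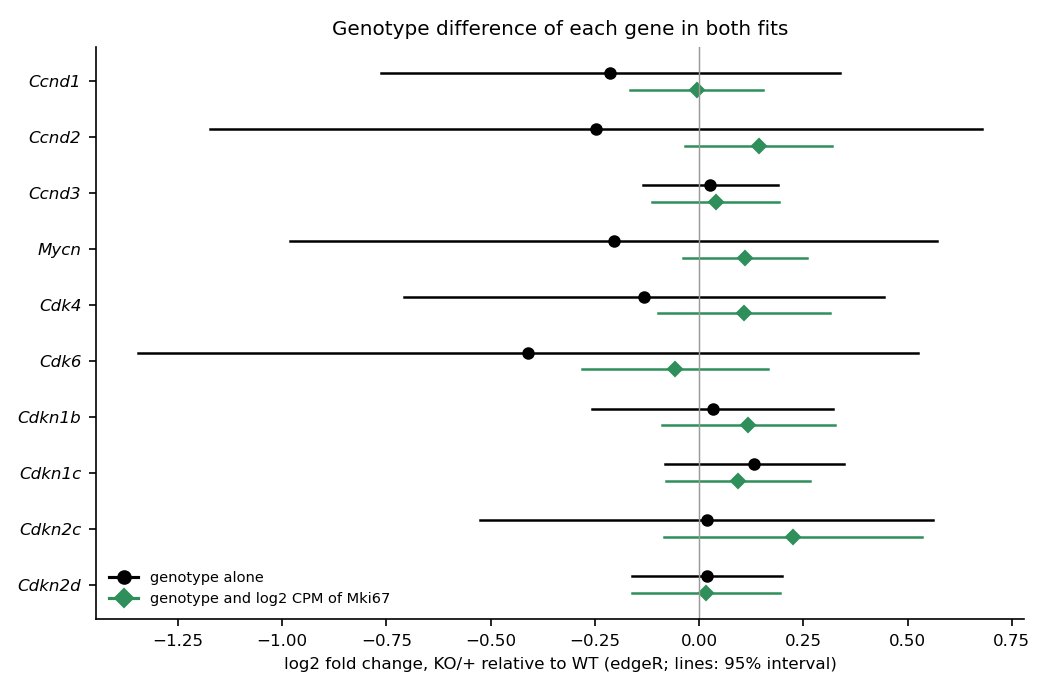
Log2 fold change of each gene, KO/+ relative to WT, with its 95% interval from edgeR, for the fit on genotype alone (black circles) and the fit with log2 CPM of Mki67 as a covariate (green diamonds). All 20 intervals include 0, and those of Ccnd2, Mycn and Cdk6 are narrower in the fit with Mki67.

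Leaving out WT replicate 3 moved the fold changes of 9 of the 10 genes down, to -0.73 for Cdk6, -0.59 for Ccnd2, -0.50 for Mycn, -0.43 for Ccnd1, -0.39 for Cdk4 and -0.23 for Cdkn2c, and leaving out WT replicate 2 brought Ccnd2 to -0.01, Ccnd1 to -0.06 and Cdk6 to -0.14. Mycn came to -0.02 without WT replicate 1. None of the 10 genes passed the threshold in any of these fits (smallest edgeR adjusted p = 0.598).

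At the level of transcripts, 63 annotated transcripts of the 10 genes were listed, 33 passed the filter, and 0 of them passed the test between genotypes (edgeR, 0 of 44375 transcripts called, 0%), with 0 at an unadjusted p under 0.05 beside 2.71% of all transcripts. Ccnd2-201 (chr6:127125162-127151060) and the shorter protein-coding model Ccnd2-204 (chr6:127148300-127151007) made up most of Ccnd2. Ccnd2-201 held 70.8%, 71.1% and 69.3% of Ccnd2 transcripts in WT and 60.3%, 60.1%, 66.3% and 70.5% in KO/+ libraries. Ccnd2-204 held 22.3%, 23.3% and 24.1% of it in the WT libraries, against 32.9%, 30.9%, 26.6% and 22.2% in those of KO/+ pups. The 2 KO/+ libraries low in Mki67 thus had the lowest share of Ccnd2-201, but WT replicate 3 did not share this, and KO/+ replicate 4 was at the WT level. The log2 fold changes of the transcripts were -0.25 (SE 0.42) and 0.09 (SE 0.33), both with an edgeR adjusted p of 1.000.

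Cdkn2c has 2 annotated transcripts with separate starts, Cdkn2c-202 from the upstream start at 109667189 and Cdkn2c-201 from the downstream start at 109665372. Cdkn2c-202 stood at 12.1, 11.8 and 6.19 TPM in WT and 8.26, 6.06, 12.2 and 11.98 TPM in KO/+ libraries, so it was lowest in the 3 libraries lowest for Mki67. Cdkn2c-201 stood at 16.5, 12.1 and 7.88 TPM in WT and 13.5, 11.7, 11.6 and 13.6 TPM in KO/+ libraries, and KO/+ replicate 1, low in Mki67, was above KO/+ replicate 3 and WT replicate 2. The log2 fold changes were -0.01 (SE 0.28) for Cdkn2c-202 and 0.12 (SE 0.23) for Cdkn2c-201.

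Of the kinases, Cdk4-201 held 53.4% to 61.4% of Cdk4 transcripts in the 7 libraries, and the retained-intron models Cdk4-209 and Cdk4-206 held 9.51% to 18.7% and 8.16% to 13.1%. Cdk6-202 ranged from 40.5% to 81.9% of Cdk6. Cdk6-205 ranged from 0.00% (WT replicate 1) to 51.1% (KO/+ replicate 1) and Cdk6-203 from 0.00% (KO/+ replicate 1) to 31.2%. The latter pair stayed below the filter, at no more than 1.95 TPM in any library, so these shares rest on few reads. Ccnd1-201, Ccnd3-205, Mycn-201 and Cdkn2d-203 each held over 80% of their gene in every library, with lowest shares of 95.0%, 82.7%, 86.3% and 89.7%. Cdkn1b-201 held 77.6% to 82.2% of Cdkn1b with Cdkn1b-202 at 14.9% to 18.8%, and Cdkn1c was divided among Cdkn1c-201 (33.6% to 47.7%), Cdkn1c-205 (37.6% to 44.5%) and Cdkn1c-202 (10.5% to 20.4%).

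**Figure D5:**
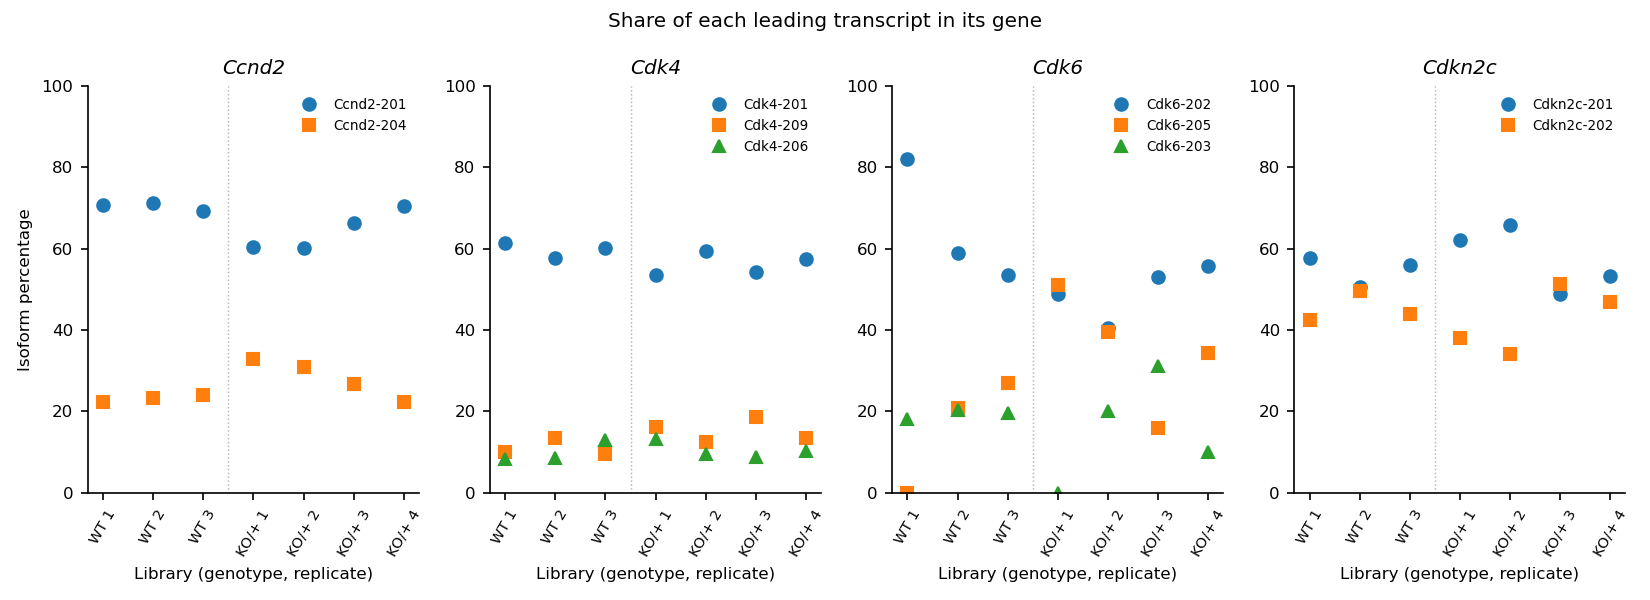
Isoform percentage of the leading transcripts of Ccnd2, Cdk4, Cdk6 and Cdkn2c in each library, with a dotted line between WT and KO/+. Ccnd2-201 lies at 60.1% to 71.1% and is lowest in KO/+ replicates 1 and 2, Cdk4 shares stay in narrow bands, and Cdk6 shares scatter from 0% to 81.9%.

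In the rest of the pathway 0 of the genes tested passed between genotypes. Of the Rb and E2F genes, through which the D cyclins act, 13 of 13 were tested, 9 were negative (median -0.06), and 10 of 13 had their 3 lowest values in the libraries lowest for Mki67, beside 14.0% of all genes tested, the share against which the counts of the next lists are also to be read. The activator E2f2 stood at 12.1, 13.6 and 4.46 CPM in WT and 5.56, 4.84, 8.45 and 11.3 CPM in KO/+ libraries (log2 fold change -0.42, SE 0.41). E2f8, an atypical E2F repressor, was at -0.40 (SE 0.47), and the Rb relative Rbl2, which did not follow Mki67, at -0.09 (SE 0.08). Of the 8 cyclin E, cyclin A and CDK2 genes, 3 were negative (median 0.05) and 2 had their lowest values in those libraries. Cdk2, the kinase of cyclins E and A, was at -0.25 (SE 0.29), and the cyclin E genes Ccne1 and Ccne2, at -0.13 (SE 0.12) and 0.09 (SE 0.10), did not follow Mki67. Ccne1 was highest in WT replicate 3, at 13.0 CPM against 9.81 to 11.2 CPM elsewhere.

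Of the 9 other CDK inhibitors and genes of their turnover, 8 were tested and Cdkn2a was below the filter, at 0.0579 to 0.315 CPM. Of those tested, 4 were negative (median 0.00) and 3 had their lowest values in the libraries lowest for Mki67. Cdkn1a, the p53-induced inhibitor p21Cip1, was at 0.22 (SE 0.14), the ubiquitin ligase subunit Fbxw7 at 0.11 (SE 0.11) and Skp2, the subunit that directs Cdkn1b protein to degradation, at -0.22 (SE 0.25). Skp2 followed Mki67, at 20.95, 21.6 and 11.8 CPM in WT and 13.9, 11.4, 17.1 and 19.7 CPM in KO/+ libraries. Of the 10 genes of the Myc network, 5 were negative (median -0.01). Among them 3 (Myc, Mycl and Mxd3) had their lowest values in the libraries lowest for Mki67. Mxi1, a MAX partner that opposes Myc, was the 1 gene of the pathway lists with no overlap between genotypes, at 124, 121 and 106 CPM in WT and 136, 136, 130 and 128 CPM in KO/+ libraries. Its log2 fold change of 0.18 (SE 0.08, edgeR adjusted p = 0.957) did not pass, and 2.16% of all genes were likewise higher in KO/+ with no overlap. The MAX-binding repressor Mga was at -0.22 (SE 0.12) and Max itself at 0.12 (SE 0.09).

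Of the 12 Hedgehog genes, 9 were negative (median -0.07) and 4 had their lowest values in the libraries lowest for Mki67. Gli2, the main Hedgehog transcriptional activator, was one of these, at 21.8, 22.4 and 9.37 CPM in WT and 7.38, 7.77, 14.6 and 19.9 CPM in KO/+ libraries (log2 fold change -0.53, SE 0.42). Gli3 was at -0.38 (SE 0.20) and the co-receptor Gas1 at 0.09 (SE 0.07). The receptor gene Ptch1 did not follow Mki67, at 163, 169 and 174 CPM in WT and 146, 168, 175 and 167 CPM in KO/+ libraries. The 8 proliferation markers were all negative (median -0.25), and the 7 besides Mki67 itself all had the Mki67 split, with Mcm2 at -0.38 (SE 0.42) and Top2a at -0.32 (SE 0.44). Of the 8 antiproliferative and exit genes, 3 were negative (median 0.08) and 2 had the Mki67 split. Tob1 was at 0.14 (SE 0.08), Tob2 at -0.07 (SE 0.09) and the axonal adhesion gene Cntn2 at -0.18 (SE 0.26). Each fold change of this and the preceding pair of paragraphs had an edgeR adjusted p of 0.957 or more.

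Neighbouring genes on the other strand overlap some of the 10 genes, and no source used here states the strand setting of the counting. Cdk4 overlaps Tspan31 (mean 51.5 CPM) by 641 bases, Ccnd1 overlaps LTO1 (19.4 CPM) by 1771 bases and Ccnd3 overlaps Bysl (19.4 CPM) by 361 bases, so reads of those stretches may be uncertain. The antisense genes that overlap Ccnd2, Cdk6 and Cdkn1c had means of at most 0.377 CPM.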

How the data were processed

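Gene and transcript values of 7 cerebellum libraries were used. Per the labels, the libraries were made from polyadenylated RNA with a directional kit. The submitters' processing notes list RSEM 1.3.1, STAR 2.5.2a, Trimmomatic 0.39 and bcl2fastq, with mm10 and GRCm38 as builds, and the settings used were not given in the sources used here. Estimated reads per gene and transcript were taken from the expected counts the authors deposited, and rounded to whole numbers. The authors' TPM divides them by transcript length, per the file headers. The isoform value the authors deposited gives each transcript as a percent of its gene. Tables of the whole series were not used. All 55450 gene IDs were found in GENCODE M21 (GRCm38), the source of positions.

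Genes were filtered with filterByExpr and compared with edgeR 4.0.16 (TMM factors 0.978 to 1.02, robust quasi-likelihood test, no covariate, Benjamini-Hochberg adjustment over all genes, threshold 0.05), in R 4.3.3. Log2 CPM used a prior count of 2. No pair of libraries was alike within sampling noise, so n was 3 and 4. The scripts were tested on simulated data. Alternatives were DESeq2 1.42.0, limma 3.58.1 (voom, or log2(TPM + 1) and log2(TPM + 0.1)), other scalings and filters, a replicate block, Mki67 as a covariate and leaving out each library. The 10 genes, the lists and the tests were chosen with earlier results of these data known. Named genes were the 10 genes, Mki67, L3mbtl3, up to 3 genes per pathway list with the smallest p, the nearest genes in pattern and transcripts of at least 10% of a gene. Atoh1, Mfap4, Ptch1, Cdkn2a, Myc, Mycl, Mxd3 and the overlapping genes were named after their values were seen.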

Additional observations from a re-analysis of the deposited data

Results flagged for a closer look

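Of 91 sets of 4 KO/+ values checked, 3 had 1 library far from the other 3, and chance flags about 1 set in 20. The share of Ccnd1 in the summed TPM of the D cyclins was 19.2% in KO/+ replicate 1, below 21.4% to 21.5% in the other KO/+ libraries. Without this library the difference of Ccnd1 shares, KO/+ minus WT, was -0.749 in place of -1.32 percentage points. Cdkn1c-201 held 33.6% of Cdkn1c transcripts in KO/+ replicate 2, below 42.7% to 44.1% in the other KO/+ libraries. The 8 meningeal and fibroblast genes summed to 312 CPM in KO/+ replicate 1, below 478 to 497 CPM in the other KO/+ libraries.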

How the results depend on the processing

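Under DESeq2, limma-voom, RLE or no scaling factors and other filters on low counts, each gene fold change followed kept its sign and 0 genes were called, with 438 to 745 genes at an unadjusted p under 0.05. On log2(TPM + 1) and log2(TPM + 0.1), Ccnd3 turned to -0.0539 and -0.0553 and Cdkn2d to -0.0365 and -0.037, and the differences of mean log2(TPM + 1) were -0.0539 and -0.0365. With Mki67 as a covariate Ccnd2 (0.14), Mycn (0.11), Cdk4 (0.11), Mcm2 (0.0279), Top2a (0.10) and Cntn2 (0.0238) turned positive. Same-numbered WT and KO/+ libraries deviated from their group means with correlations of 0.09, -0.17 and -0.02. Other pairs of a WT and a KO/+ library ran from -0.44 to 0.44. These values therefore cannot tell whether same-numbered libraries were paired. With the replicate block, 1 gene was called (Eif3j2, which is none of the 10 genes) with 1029 at an unadjusted p under 0.05, and Cdkn2c turned to -0.0157. On TPM, 3892 genes in place of 2351 were lowest where Mki67 was. With no transcript filter beyond 1 count, 3 transcripts were called in place of 0. Leaving out 1 library gave 0 to 1 called genes (Wdfy1 without WT replicate 2, Fam220a without WT replicate 3, Eif3j2 without KO/+ replicate 4) and 0 to 2 called transcripts (2 without WT replicate 3, 1 without KO/+ replicate 4). The fold changes that changed sign had ranges, over the libraries left out, for genes of Ccnd3 (-0.012 to 0.0593), Ccne2 (-0.0003 to 0.14), Cdk4 (-0.39 to 0.0103), Cdkn1b (-0.11 to 0.11), Cdkn2c (-0.23 to 0.22) and Cdkn2d (-0.0307 to 0.0478), and for transcripts of Ccnd2-204 (-0.22 to 0.34), Ccnd3-205 (-0.0072 to 0.064), Cdk4-201 (-0.37 to 0.0001), Cdkn1b-201 (-0.0741 to 0.16), Cdkn1b-202 (-0.17 to 0.0237), Cdkn1c-201 (-0.0466 to 0.19), Cdkn2c-201 (-0.095 to 0.39), Cdkn2c-202 (-0.25 to 0.14), Cdkn2d-203 (-0.0173 to 0.0517) and Mycn-201 (-0.43 to 0.0028). The shares of Ccnd2 and Ccnd3, KO/+ minus WT, ranged from -6.34 to 2.89 and from -1.57 to 7.60 percentage points; this alternative was chosen after the data were seen. With 3 and 4 libraries, the 95% intervals of Ccnd2, Mycn and Cdk6 include log2 changes down to -1.17, -0.98 and -1.35, which the data thus leave within error. The cause of these changes was not tested.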
